A study of Homo sapiens with 12 samples.

Results

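Except the antisense gene HNRNPU-AS1, the 75 genes here encode SR, hnRNP and TRA2 proteins, the CLK kinases of SR proteins and named spliceosome proteins. They were taken from a count table of 26334 genes by symbol, as every symbol that begins with HNRNP, SF3A or SF3B and a number, PRPF, U2AF or SNRP, or that reads SRSF with a number, TRA2A, TRA2B or CLK1 to CLK4, with at least 10 counts in at least 3 of the 12 libraries. The pattern matched 87 symbols, 75 of them reached the count limit, and all 75 were among the 12775 genes tested. They fall into 12 SRSF genes, 6 TRA2 and CLK genes, 21 hnRNP genes, 9 SF3 genes, 3 U2AF genes, 11 SNRP genes and 13 PRPF genes. The 18 SRSF, TRA2 and CLK genes are called regulators below, and the 33 SNRP, SF3 and PRPF genes are called the core.

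Polyadenylated RNA was sequenced from shA673-1c cells, which derive from the Ewing sarcoma line A673 and in which doxycycline induces a hairpin against the fusion transcript EWS::FLI1, after 0, 1, 2 and 4 h of 5 µM actinomycin D, in 3 biological replicates per time, per the labels. Actinomycin D blocks transcription. All 4 groups had been kept for 4 days with doxycycline at 1 µg per ml, and blasticidin and zeocyn, as the labels spell it, were in the medium. No group without doxycycline was compared, so the knockdown itself is not a contrast here, and all 12 libraries come from 1 cell line.

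Splicing removes introns from the newly made transcript. SR proteins bind short RNA elements, mostly in exons, and help to recruit the spliceosome, whereas many hnRNP proteins bind the same transcripts and often oppose them. CLK kinases phosphorylate the arginine and serine repeats of SR proteins. The core is built from small nuclear ribonucleoproteins: U1 marks the start of the intron, U2 with the SF3 proteins its branch point, and U4, U5 and U6 arrive together as the tri-snRNP, in which many PRPF proteins sit. Several SR and hnRNP proteins regulate the splicing of their own transcripts.

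Library totals lay between 9381855 and 10929000 counts. Time accounted for the first principal component, with 59.0% of the variance of log2 CPM (read counts divided by the scaled library total), while the second, with 15.9%, separated the replicate 3 libraries from the others at each of the 4 times. FLI1, whose reads include the part held in the fusion transcript, averaged 20.5 ± 1.05 CPM at 0 h, 14.8 ± 4.30 after 1 h, 11.1 ± 2.18 after 2 h and 7.42 ± 0.639 after 4 h (SD, n = 3 each). Of the Ewing sarcoma markers, CD99 was listed at 0 in every library, NKX2-2 averaged 1.57 ± 0.217 CPM and NR0B1 4.57 ± 0.288 CPM at 0 h, and all 9 markers summed to 431 to 718 CPM per library, of which CCND1 held most. Markers of blood and endothelium summed to 11.7 to 30.8 CPM per library, with HBB the highest and CD3E at 0, those of epithelium to 0.529 to 1.08 CPM, and those of liver to 0 to 0.566 CPM. Whether the 0 of CD99 comes from the cells or from how reads were counted was not tested. The part of these markers in the results below was not tested.

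Levels are CPM of totals scaled by TMM, a method that takes the bulk of genes as its zero. Every change is therefore a change in the share of the library, not in the number of molecules, and is given as log2 of the later time over 0 h with its standard error (SE). A gene is called when its p from the quasi-likelihood test of edgeR, adjusted over all 12775 genes by Benjamini-Hochberg, is under 0.05. In bulk RNA, fewer cells of a kind and less of an mRNA per cell cannot be told apart.

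At 4 h, 11 of the 75 genes were lower and 26 were higher than at 0 h, and the other 38 were not called. Over all genes tested, 24.5% were called lower and 23.2% higher. As a share of the 75 genes the calls were 14.7% lower and 34.7% higher. The changes were small: the 75 genes ran from -0.75 to 0.50 with a median of 0.13 on the log2 scale, whereas the 5th and 95th percentiles of all genes tested were -1.79 and 0.59 around a median of 0.05. With TMM, no member changed by more than 2-fold, while 11.4% of all genes were called lower and 0.806% called higher by more than 2-fold. Also with TMM, a fall of more than 1.5-fold was seen in 5 members, of which 4 were called. A rise of more than 1.5-fold was seen in none of the 75. The shares of all genes past 1.5-fold were not counted, so these counts cannot be set against all genes.

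The calls moved with the zero of the scale. When libraries were scaled by 77 mRNAs of ribosomal proteins in place of TMM, the median of all genes at 4 h was -0.31, against 0.05 with TMM. There 40 members were called lower and 0 higher, or 53.3% and 0% of the 75, beside 44.5% and 1.21% of all genes. The members' share of lower calls thus stood below that of all genes with TMM and above it under the ribosomal scaling. Scaled by plain library totals, 21 members were lower and 7 higher, or 28.0% and 9.33%, beside 30.9% and 10.6% of all genes. The 11 members called lower with TMM were called lower under all 4 scalings run, and no member was called higher under all 4. Each of the other scalings shifts the log2 changes of all genes at 4 h downward relative to TMM, so that lower calls are kept under them by construction and this is no sign of stability. Of the 26 called higher with TMM, 7 stayed above 0 under the ribosomal scaling, none of them called there. A call differed between scalings for 48 members and a direction for 37. The size of a change moved too: under the ribosomal scaling HNRNPA1L2, SRSF5 and CLK3 were called more than 2-fold lower, at -1.12, -1.09 and -1.01. A rise below is thus a rise relative to the bulk of genes.

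**Figure D1:**
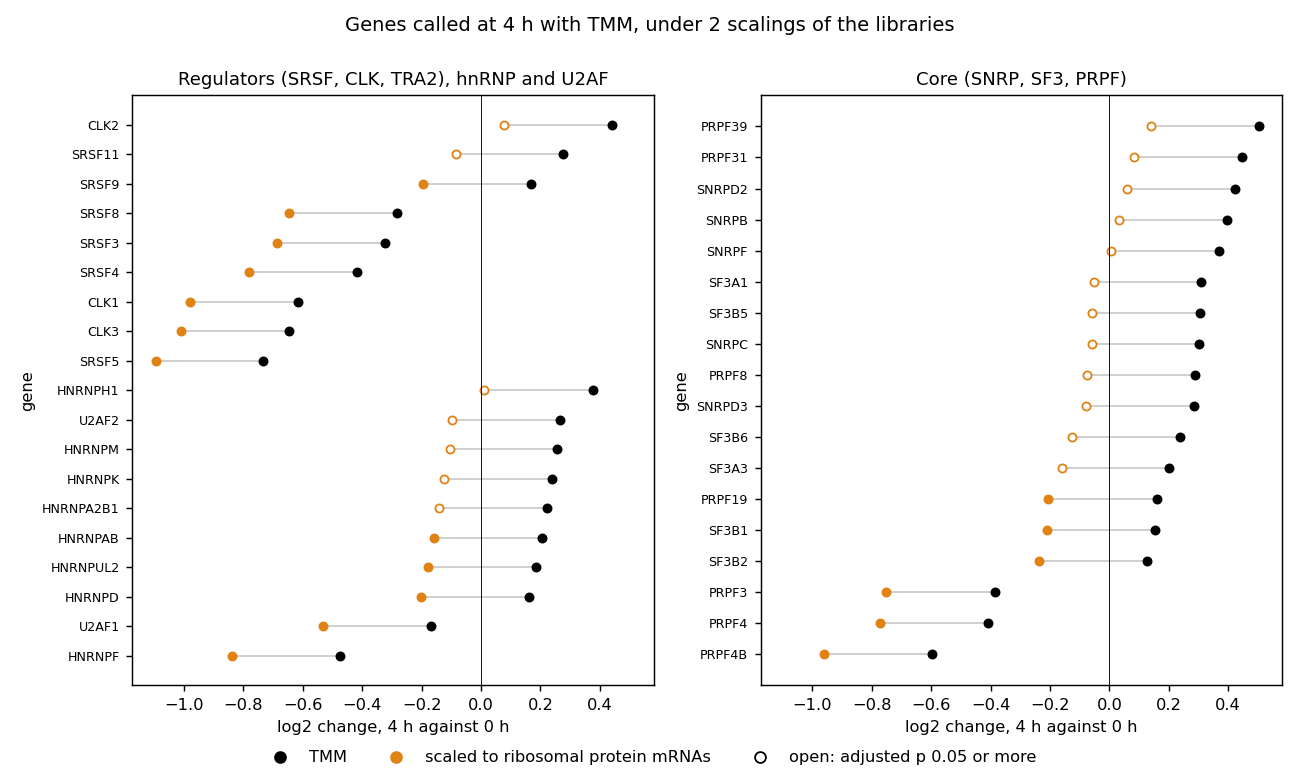
Log2 change at 4 h against 0 h of the 37 members called with TMM (x axis) under TMM (black) and under scaling to ribosomal protein mRNAs (orange), with open circles for an adjusted p of 0.05 or more. Left, regulators above hnRNP and U2AF genes; right, the core. All 37 genes lie further left under the ribosomal scaling, the 11 called lower stay called, and 7 of the 26 genes called higher with TMM remain right of 0.

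Replicate numbers in the labels paired the libraries, and the fit with a replicate block, which takes the level of each replicate number out, made more calls. It called 20 members lower and 36 higher at 4 h, or 26.7% and 48.0% of the 75, against 30.8% and 34.8% of all genes. All 11 lower and all 26 higher members of the fit without the block were among them.

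Beside the 24.5% lower and 23.2% higher of all genes, the calls at 4 h were as follows by role. Of the 18 regulators, 6 were lower, 3 higher and 9 not called, with a median log2 change of -0.13, and of the 33 core genes, 3 were lower, 15 higher and 15 not called, with a median of 0.16. These are shares of 33.3% lower and 16.7% higher in the regulators and of 9.09% lower and 45.5% higher in the core, and the difference between them was not tested. The 21 hnRNP genes had 1 lower, 7 higher and 13 not called, or 4.76% and 33.3%, with a median of 0.17. With the block, the regulators had 10 lower and 4 higher, or 55.6% and 22.2%, and the core 5 and 18, or 15.2% and 54.5%. The hnRNP genes had 4 and 13, or 19.0% and 61.9%, beside 30.8% and 34.8% of all genes. Within replicate numbers, the regulators' median minus the core's median was -0.380 in replicate 1, -0.269 in replicate 2 and -0.231 in replicate 3 at 4 h. At 2 h these differences were -0.117, -0.0800 and -0.133, and at 1 h -0.0274, -0.0894 and -0.0448. All 9 differences lay below 0, and they were largest in size at 4 h in each replicate number. The values of 1 replicate number share its 0 h library and the same lists, so these are not 9 separate observations. Under the ribosomal scaling the median of regulators at 4 h was -0.492 and that of the core -0.205, so both stood below 0 there with the regulators lower. The regulators' median was -0.187 without replicate 2 of 4 h and -0.0727 without replicate 2 of 0 h. These medians describe the lists and carry no test.

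In summed level, the 18 regulators held 2229 ± 93.9 CPM at 0 h, 2176 ± 103 after 1 h, 2206 ± 119.8 after 2 h and 2102 ± 99.9 after 4 h (SD, n = 3 each), so their sums overlapped between times. Within each replicate number the sum was lower at 4 h than at 0 h. It went from 2147 to 2008 CPM in replicate 1, from 2332 to 2207 in replicate 2 and from 2207 to 2090 in replicate 3. The 33 core genes held 4151 ± 39.6, 4225 ± 40.2, 4361 ± 60.3 and 4571 ± 76.5 CPM at those times, and the lowest 4 h library, at 4490 CPM, was above the highest 0 h library, at 4195 CPM. The 21 hnRNP genes held 6111 ± 116, 6099 ± 124, 6566 ± 218 and 6719 ± 349 CPM.

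**Figure D2:**
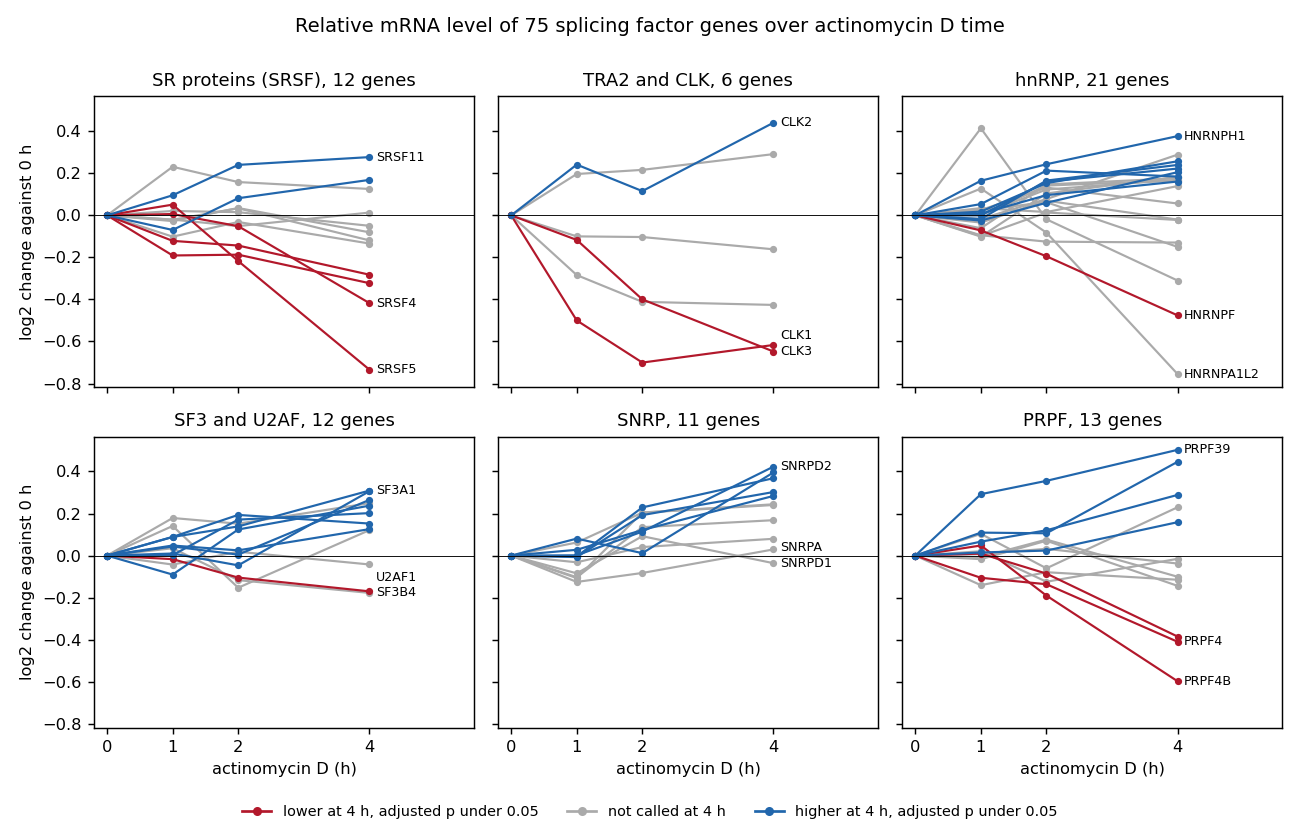
Log2 change against 0 h (y axis) of each of the 75 genes over 0, 1, 2 and 4 h of actinomycin D (x axis), by class, with 1 line per gene, TMM scaling and means over 3 libraries. Red lines are the 11 genes called lower at 4 h, blue the 26 called higher and grey the 38 not called; the regulators in the first and second panels hold 6 red and 3 blue lines.

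Of the 12 SR proteins, SRSF5, SRSF4, SRSF3 and SRSF8 were lower at 4 h and SRSF11 and SRSF9 higher, and 6 were not called, around a class median of -0.10 on the log2 scale that was -0.46 under the ribosomal scaling. SRSF5, an SR protein that binds exonic enhancers, had 91.6, 86.8 and 96.6 CPM at 0 h, 91.8, 91.1 and 102 after 1 h, 76.3, 78.4 and 81.8 after 2 h and 52.6, 47.7 and 65.1 after 4 h. All 3 libraries of 4 h lay below every earlier library, as did those of 2 h below every library of 0 and 1 h. Its change at 4 h was -0.73 ± 0.10 (SE, adjusted p = 4.45e-05 in edgeR), a level 1.66-fold lower. SRSF4, a larger protein of the same family, had 75.3, 74.9 and 78.3 CPM at 0 h, 68.7, 77.7 and 83.1 after 1 h, 71.3, 74.2 and 75.2 after 2 h and 56.3, 57.4 and 57.5 after 4 h. Its libraries overlapped at 0, 1 and 2 h and stood apart at 4 h, with a change of -0.42 ± 0.07 (SE, adjusted p = 0.000341 in edgeR).

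SRSF3, a small SR protein that also links mRNA to export factors, had 218, 221 and 207 CPM at 0 h, 189, 212 and 163 after 1 h, 191, 199 and 177 after 2 h and 168, 176 and 172 after 4 h. Its 2 h and 4 h libraries lay below all 0 h libraries, and its change at 4 h was -0.32 ± 0.08 (SE, adjusted p = 0.00597 in edgeR). With the replicate block it was lower already at 1 h and 2 h, with edgeR adjusted p-values of 0.00368 and 0.00129, against 0.475 and 0.165 without it. SRSF8 changed by -0.28 ± 0.10 (SE, adjusted p = 0.0357 in edgeR) at 4 h, and it lost the call without replicate 1 or 2 of 0 h or replicate 3 of 4 h, with edgeR adjusted p-values of 0.0989 to 0.155.

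SRSF11, an SR-related protein known to bind U2AF2, had 201, 209 and 219 CPM at 0 h, 203, 219.8 and 249 after 1 h, 229, 251 and 263 after 2 h and 234, 255 and 274 after 4 h. It was higher at 4 h in each replicate number, with a change of 0.28 ± 0.08 (SE, adjusted p = 0.0146 in edgeR) that turned to -0.09 under the ribosomal scaling. The call was lost without replicate 1 of 0 h or replicate 3 of 4 h, at edgeR adjusted p-values of 0.0507 and 0.0644. SRSF9, another SR protein, had 150.2, 159 and 152 CPM at 4 h, against 132, 138 and 139.8 CPM at 0 h, a change of 0.17 ± 0.07 (SE, adjusted p = 0.0483 in edgeR), and under the ribosomal scaling it was called lower, at -0.19. Its call was lost when any 1 of 10 libraries was left out, at edgeR adjusted p-values of 0.0557 to 0.145.

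SRSF1, the founding member of the family, had 385, 457 and 373 CPM at 4 h, against 402, 485 and 433 CPM at 0 h, and the libraries of both times overlapped. Its change was -0.12 ± 0.10 (SE, adjusted p = 0.368 in edgeR), with an adjusted p of 0.00395 with the replicate block. SRSF7, which also takes part in mRNA export, had 118, 139.6 and 113 CPM at 4 h, against 139, 149 and 119 CPM at 0 h, with overlapping libraries and a change of -0.13 ± 0.13 (SE, adjusted p = 0.437 in edgeR), and the adjusted p with the block was 0.015. SRSF2, an SR protein that binds exonic enhancers and stays in the nucleus, had 294, 297 and 219.6 CPM at 4 h, against 288, 300.0 and 215 CPM at 0 h. Replicate 3 was the lowest library at both times, and the change was 0.01 ± 0.20 (SE, adjusted p = 0.965 in edgeR). SRSF12, the member closest to the count limit with 10 to 26 counts per library, had a change of 0.13 ± 0.35 (SE, adjusted p = 0.788 in edgeR).

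All 4 CLK genes were measured, and they split. CLK1, a kinase that phosphorylates SR proteins in the nucleus, had 32.3, 32.5 and 24.8 CPM at 0 h, 21.5, 21.8 and 20.1 after 1 h, 17.4, 20.1 and 17.6 after 2 h and 21.1, 19.0 and 18.3 after 4 h. Every library after 0 h lay below every library of 0 h, and the levels of 2 h and 4 h overlapped. The change was -0.50 ± 0.11 (SE, adjusted p = 0.0521 in edgeR) at 1 h, -0.70 ± 0.12 (SE, adjusted p = 0.00084 in edgeR) at 2 h and -0.62 ± 0.12 (SE, adjusted p = 0.000676 in edgeR) at 4 h. With the replicate block it was called at 1 h as well, with an edgeR adjusted p of 6.67e-05. The level of CLK1 was 1.53-fold lower at 4 h than at 0 h.

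CLK3, a kinase of the same family, had 30.6, 29.9 and 28.9 CPM at 0 h, 27.2, 26.4 and 28.8 after 1 h, 24.3, 20.1 and 23.3 after 2 h and 18.6, 19.1 and 19.3 after 4 h. Its libraries did not overlap between 0 h and any later time, and those of 4 h were below all of 2 h. The change was -0.40 ± 0.09 (SE, adjusted p = 0.0068 in edgeR) at 2 h and -0.65 ± 0.09 (SE, adjusted p = 5.47e-05 in edgeR) at 4 h, 1.57-fold lower. CLK4, the paralog closest to CLK1, had 14.1, 16.1 and 11.3 CPM at 0 h, 13.8, 10.1 and 10.3 after 1 h, 10.6, 10.2 and 10.3 after 2 h and 10.3, 13 and 7.53 after 4 h. The 4 h and 0 h libraries overlapped, since replicate 2 of 4 h stood above replicate 3 of 0 h, and the change at 4 h was -0.43 ± 0.19 (SE, adjusted p = 0.0867 in edgeR). With the block, CLK4 was lower at 2 h and 4 h, with edgeR adjusted p-values of 0.0133 and 0.00535.

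CLK2, the remaining kinase, had 24.9, 25.0 and 25.0 CPM at 0 h, 28.2, 27.0 and 33.3 after 1 h, 27.4, 26.3 and 27.4 after 2 h and 30.3, 35.5 and 35.9 after 4 h. All later libraries lay above all 0 h libraries, and the change at 4 h was 0.44 ± 0.10 (SE, adjusted p = 0.00213 in edgeR), 1.36-fold higher. It was also above 0 under the ribosomal scaling, at 0.08, without a call. TRA2A and TRA2B are SR-like proteins that bind exonic enhancers. TRA2A had 42.2, 53.9 and 65.2 CPM at 4 h, against 39.9, 42.3 and 49.5 CPM at 0 h, higher in each replicate number with overlapping libraries, and a change of 0.29 ± 0.19 (SE, adjusted p = 0.22 in edgeR) that turned to -0.07 under the ribosomal scaling. TRA2B had 159, 174 and 191 CPM at 4 h, against 163, 201 and 222 CPM at 0 h, lower in each replicate number, and a change of -0.16 ± 0.13 (SE, adjusted p = 0.342 in edgeR). With the block both were called, TRA2A higher with an adjusted p of 0.000439 and TRA2B lower with one of 0.00175.

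**Figure D3:**
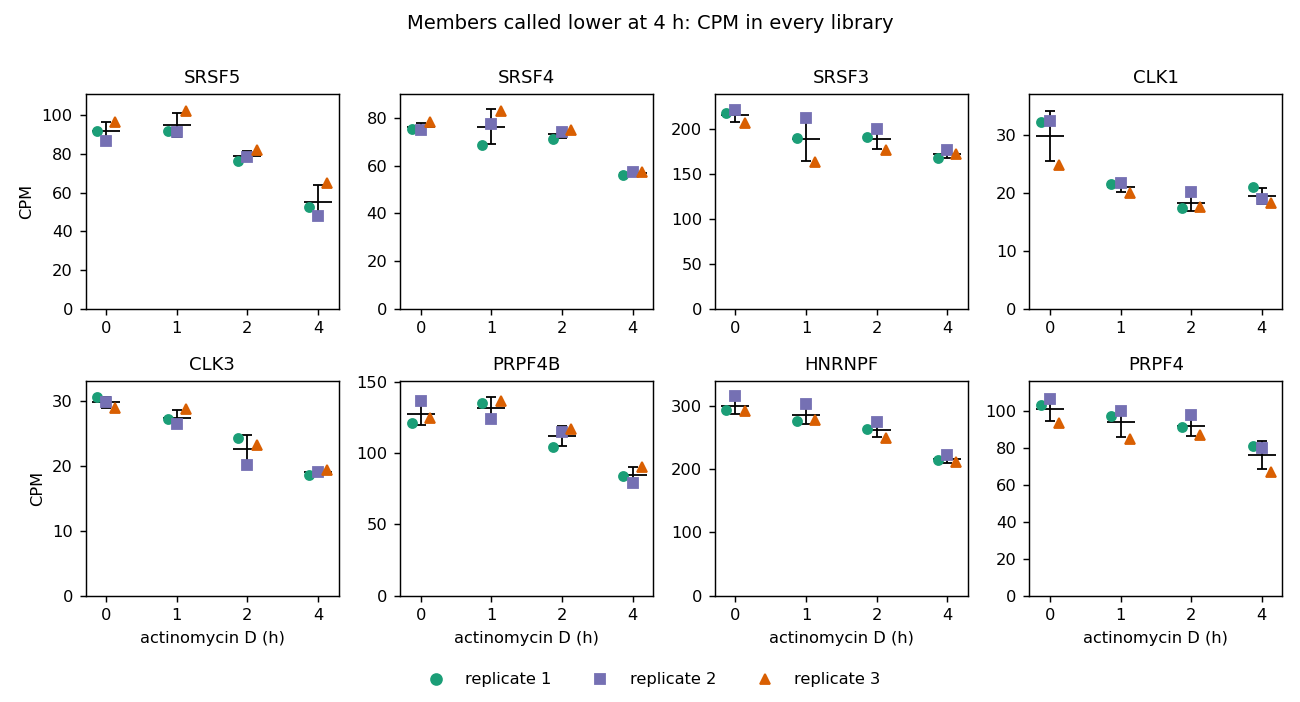
CPM (y axis, from 0) of 8 genes called lower at 4 h over hours of actinomycin D (x axis), with 1 point per library, marked by replicate number, and bars for mean ± SD of 3 libraries. In all 8 panels the 3 libraries of 4 h lie below the 3 of 0 h; CLK1 was lowest at 2 h, and SRSF4 overlapped 0 h at 1 h and 2 h.

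AU-rich elements in the 3′ UTR are known sites for proteins that shorten or lengthen the life of an mRNA. The reference 3′ UTRs of the regulators were read for short motifs of such elements, and whether a match lies in one was not tested. The sites below are those of the regulators called lower that hold exactly 1 pentamer ATTTA, and the members that hold the nonamer TTATTTATT, which contains the pentamer. They are given in mRNA sense, 5′ to 3′, with the motif in capitals, from the GRCh38 genome and the GENCODE release 29 annotation, at chr14:69771736-69771764 for SRSF5 (plus strand), chr1:29148005-29148033 for SRSF4 (minus), chr2:200853097-200853125 for CLK1 (minus), chr15:74630060-74630088 for CLK3 (plus), chr6:36603561-36603589 for SRSF3 (plus) and chr7:23504909-23504937 for TRA2A (minus).
SRSF5: taactaaagcaaATTTAatttttttgtac
SRSF4: tcgatgtatgccATTTAgtgaaagtgcta
CLK1: aattgtaaagtgATTTAttcagaataaat
CLK3: ttgacccaagctATTTAtatgttataaag
SRSF3: cctaaacaaaTTATTTATTtccacctttt
TRA2A: aggacaacccTTATTTATTacctagagca
The pentamer sites of SRSF5, SRSF4, CLK1 and CLK3 were thus chosen by the call itself, and a single pentamer was also held by SRSF9, called higher, and by SRSF1, not called. Of the 2 members with the nonamer SRSF3 was called lower and TRA2A was not called.

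Across members, a 3′ UTR was annotated for 74 of the 75 genes, and the pentamer was searched on the sense strand with overlapping matches counted. The median density was 1.84 pentamers per kb in the 11 genes called lower, 2.05 in the 37 not called and 0.565 in the 26 called higher. Over the 11661 genes tested with a 3′ UTR it was 2.11, 1.79 and 0.917 per kb in the same 3 classes. At least 1 pentamer was present in 81.8% of the lower, 73.0% of the uncalled and 53.8% of the higher members, and in 82.8%, 72.8% and 57.1% of all genes. The share with a pentamer ran in the same order of classes in members and in all genes, whereas the members' density was highest in the uncalled class. Their 3′ UTRs were shorter: the medians were 667 bases in lower, 811 in uncalled and 488 in higher members, against 1706, 1200 and 720 bases over all genes.

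By role, the 18 regulators had a median of 2.59 pentamers per kb, 17 of the 18 held at least 1, and the 33 core genes had a median of 0.171 per kb, with 17 of the 33 holding at least 1. Over all genes the median was 1.68 per kb, and 71.6% held at least 1. The 9 regulators not called had 2.61 per kb and the 3 called higher 2.85, no fewer than the 2.17 of the 6 called lower. The nonamer was in 2.7% of members and in 9.0% of all genes. Across the 74 genes, Spearman's rho between pentamer density and log2 change at 4 h was -0.204, the same value as over all 11661 genes, and that for 3′ UTR length was -0.233, against -0.253 over all genes. These points share libraries, base composition and UTR length, and a match is not a measured site.

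**Figure D4:**
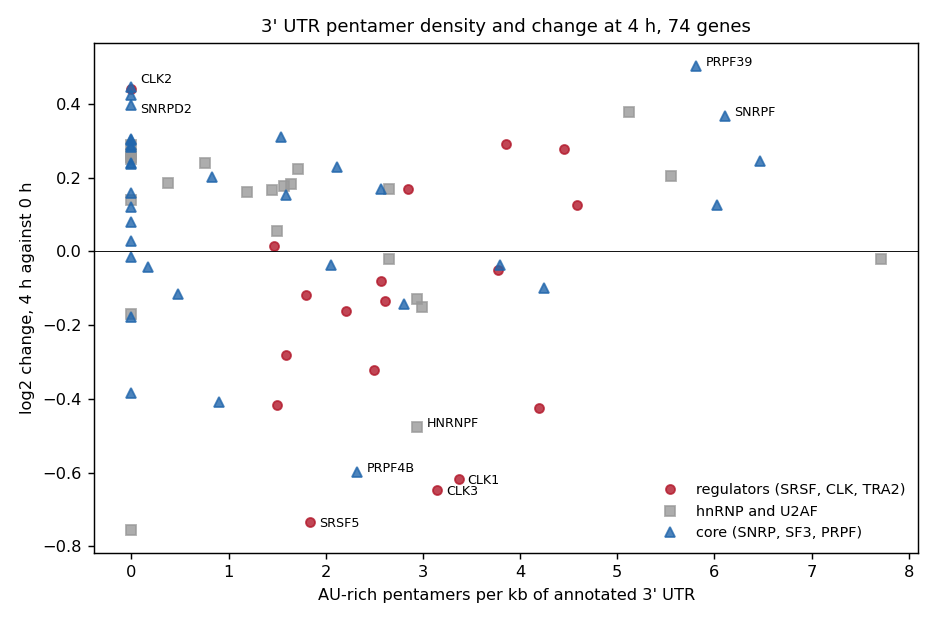
Density of the AU-rich pentamer per kb of annotated 3′ UTR (x axis) against log2 change at 4 h (y axis) for 74 genes, with 1 point per gene. Regulators (red circles) have a median density of 2.59 per kb and the core (blue triangles) 0.171; PRPF39 and SNRPF, both called higher, hold over 5 pentamers per kb.

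Among the 21 hnRNP genes, HNRNPF was the one member lower at 4 h, 7 were higher and 13 were not called. The class median was 0.17 on the log2 scale and -0.20 under the ribosomal scaling. HNRNPF, which binds runs of G, had 294, 315 and 293 CPM at 0 h, 277, 303 and 278 after 1 h, 264, 274 and 249.8 after 2 h and 214, 223 and 211 after 4 h. Its level was below all 0 h libraries at 2 h and again lower at 4 h, with changes of -0.19 ± 0.06 (SE, adjusted p = 0.0434 in edgeR) and -0.48 ± 0.06 (SE, adjusted p = 2.45e-05 in edgeR). HNRNPH1, its paralog with the same kind of binding site, had 440.2, 460.5 and 381 CPM at 0 h, 465, 497 and 475 after 1 h, 504, 554 and 459 after 2 h and 552, 609 and 504 after 4 h. All libraries of 4 h were above those of 0 h, and the change was 0.38 ± 0.09 (SE, adjusted p = 0.00351 in edgeR), with 0.01 under the ribosomal scaling. Another gene of that family, HNRNPH2, was listed with 0 to 3 counts per library and was not a member by the count limit. Whether this comes from the cells or from the counting was not tested.

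HNRNPM, which binds GU-rich RNA, had 338, 392 and 377 CPM at 4 h, against 280.2, 306 and 340.1 CPM at 0 h. The libraries overlapped while each replicate number was higher at 4 h, and the change was 0.26 ± 0.10 (SE, adjusted p = 0.0407 in edgeR), lost without any of 5 libraries at edgeR adjusted p-values of 0.0533 to 0.145. HNRNPK, which binds C-rich RNA, had 874, 940.2 and 819.8 CPM at 4 h, against 745, 742 and 743 CPM at 0 h. Its 4 h libraries stood above all 0 h libraries, with a change of 0.24 ± 0.06 (SE, adjusted p = 0.00502 in edgeR). Both turned below 0 under the ribosomal scaling, HNRNPM at -0.11 and HNRNPK at -0.12. HNRNPD, also called AUF1 and a binder of AU-rich elements, changed by 0.16 ± 0.06 (SE, adjusted p = 0.0427 in edgeR) and was called lower under the ribosomal scaling, at -0.20. Its call was lost when any 1 of 8 libraries was left out, at edgeR adjusted p-values of 0.0537 to 0.138.

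HNRNPC, which binds runs of U, had 466, 482 and 366 CPM at 4 h, against 422, 391 and 344 CPM at 0 h, higher in each replicate number with replicate 3 the lowest library at both times. Its change was 0.18 ± 0.13 (SE, adjusted p = 0.255 in edgeR), and with the block the adjusted p was 6.67e-05. HNRNPA1, which often opposes SRSF1 at splice sites, had 35.2, 37.9 and 38.6 CPM at 4 h, against 30.0, 36.7 and 32.2 CPM at 0 h, a change of 0.18 ± 0.10 (SE, adjusted p = 0.155 in edgeR) and an adjusted p of 0.0325 with the block. Its reads can be shared with many processed copies, so its level is uncertain. HNRNPU, a nuclear scaffold protein, had 813, 823 and 695 CPM at 4 h, against 809, 821 and 734 CPM at 0 h, with overlapping libraries and a change of -0.02 ± 0.09 (SE, adjusted p = 0.864 in edgeR).

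A pair of entries in this class are not ordinary hnRNP genes. HNRNPA1L2, an intronless copy of HNRNPA1 with 14 to 41 counts per library, had 2.27, 1.57 and 1.48 CPM at 4 h, against 3.40, 3.21 and 2.38 CPM at 0 h. The libraries did not overlap, and the change of -0.75 ± 0.30 (SE, adjusted p = 0.0501 in edgeR) missed the threshold and passed it with the block, at an adjusted p of 0.0142. HNRNPU-AS1, the antisense gene of HNRNPU, had 17.4, 17.1 and 14.1 CPM at 0 h, 19.3, 17.0 and 28.2 after 1 h, 17.0, 15.0 and 15.8 after 2 h and 12, 12.2 and 14.8 after 4 h. Replicate 3 of 1 h, with 324 counts, stood above the 106 to 187 counts of the other 11 libraries. Its change at 4 h was -0.31 ± 0.18 (SE, adjusted p = 0.165 in edgeR). The kit kept strand, but whether counting used it was not given in the sources used here, so reads of HNRNPU and HNRNPU-AS1 may not be separated.

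The SF3A and SF3B proteins belong to the U2 snRNP and hold the branch point. Of their 9 genes, 6 were higher at 4 h, 3 were not called and none was lower; the median was 0.15, and -0.21 under the ribosomal scaling, where 4 were lower and 0 higher. SF3A1, a subunit of SF3A, had 154, 139.6 and 146 CPM at 4 h, against 117, 119.6 and 118 CPM at 0 h. Its libraries did not overlap and its change was 0.31 ± 0.07 (SE, adjusted p = 0.00169 in edgeR), with -0.05 under the ribosomal scaling. SF3B5, a small SF3B subunit, had 67.7, 61.6 and 62.0 CPM at 0 h, 67.0, 65.9 and 59.7 after 1 h, 60.4, 63.7 and 61.1 after 2 h and 83.3, 78.3 and 74.9 after 4 h. Its libraries of 0, 1 and 2 h overlapped and those of 4 h were all above them, with a change of 0.31 ± 0.07 (SE, adjusted p = 0.00303 in edgeR) against 0 h and -0.06 under the ribosomal scaling.

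SF3B1, the large SF3B subunit at the branch point, had 459, 459 and 434 CPM at 0 h, 507, 469.9 and 461 after 1 h, 523, 512 and 511 after 2 h and 513, 509.7 and 480.4 after 4 h. Each later library stood above all 0 h libraries, and its levels at 2 h and 4 h overlapped. The change was 0.19 ± 0.06 (SE, adjusted p = 0.0298 in edgeR) at 2 h and 0.15 ± 0.06 (SE, adjusted p = 0.0355 in edgeR) at 4 h. The call at 4 h was lost when any 1 of 8 libraries was left out, at edgeR adjusted p-values of 0.0582 to 0.206, and under the ribosomal scaling SF3B1 was called lower, at -0.21.

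The subunits of U2AF, which together recognise the end of the intron, were called in opposite directions at 4 h. U2AF1, which contacts the terminal AG, had 90.3, 99.5 and 95.4 CPM at 4 h, against 106, 107 and 108 CPM at 0 h. Its libraries did not overlap, its change was -0.17 ± 0.06 (SE, adjusted p = 0.0373 in edgeR), and the call was lost without any of 5 libraries, at edgeR adjusted p-values of 0.0624 to 0.137. U2AF2, which binds the pyrimidine tract before it, had 219, 222 and 230.0 CPM at 0 h, 224, 241 and 226 after 1 h, 227, 221 and 225 after 2 h and 267, 270.1 and 268 after 4 h. The 4 h libraries were above all others, and the change was 0.26 ± 0.05 (SE, adjusted p = 0.00073 in edgeR), with -0.10 and no call under the ribosomal scaling. U2AF1L4, a U2AF1-like gene with 36 to 86 counts, was not called.

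The 11 SNRP genes encode the Sm ring that sits on most spliceosomal snRNAs and proteins of U1 and U2. None was lower at 4 h, 5 were higher and 6 were not called; the median was 0.24, and -0.12 under the ribosomal scaling. With the replicate block, 8 were higher. In the Sm ring, SNRPD2, SNRPB, SNRPF and SNRPD3 were higher, and 3 genes were not called: SNRPE had a change of 0.24 ± 0.10 (SE, adjusted p = 0.0701 in edgeR), SNRPG of 0.24 ± 0.10 (SE, adjusted p = 0.053 in edgeR) and SNRPD1 of -0.04 ± 0.08 (SE, adjusted p = 0.732 in edgeR). With the block SNRPE and SNRPG were also called higher, with adjusted p-values of 0.0111 and 0.0116, and SNRPD1 was not, with one of 0.554. Of the U1 proteins, SNRPC rose by 0.30 ± 0.07 (SE, adjusted p = 0.00232 in edgeR) and SNRPA was not called.

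SNRPD2 had 138, 129.7 and 142 CPM at 0 h, 129.9, 146 and 134 after 1 h, 144, 149.7 and 149 after 2 h and 184, 178 and 187 after 4 h. Its libraries of 4 h were above all earlier ones, and the change was 0.42 ± 0.06 (SE, adjusted p = 7.21e-05 in edgeR), 1.34-fold higher. SNRPB, whose product is an Sm protein with a near-identical paralog in SNRPN, had 196, 214 and 212 CPM at 0 h, 208, 231 and 218 after 1 h, 204, 216 and 206 after 2 h and 270.1, 266 and 280.3 after 4 h. The libraries of 0, 1 and 2 h overlapped and those of 4 h stood above them, with a change of 0.40 ± 0.06 (SE, adjusted p = 0.000102 in edgeR). SNRPN was listed at 0 in every library, so how the counting shared reads between both genes is uncertain. SNRPF had 63.0, 62.2 and 68.2 CPM at 0 h, 61.2, 66.8 and 64.9 after 1 h, 74.1, 78.2 and 74.4 after 2 h and 76.6, 88.7 and 84.3 after 4 h. Its libraries of 2 h and 4 h were above all of 0 h, with changes of 0.23 ± 0.07 (SE, adjusted p = 0.0459 in edgeR) and 0.37 ± 0.07 (SE, adjusted p = 0.000845 in edgeR). Under the ribosomal scaling SNRPD2 stood at 0.06, SNRPB at 0.03 and SNRPF at 0.00, none of them called.

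Of the 13 PRPF genes, 3 were lower, 4 higher and 6 not called at 4 h, around a median of -0.04 that was -0.40 under the ribosomal scaling. PRPF3, PRPF4 and PRPF31 encode proteins of the same particle, the U4/U6 snRNP. PRPF4 had 103, 106 and 93.7 CPM at 0 h, 97.2, 100.03 and 84.6 after 1 h, 91.4, 97.7 and 86.7 after 2 h and 81.0, 80.0 and 67.1 after 4 h, and PRPF3 had 36.3, 40.8 and 33.0 CPM at 4 h, against 52.9, 47.9 and 43.0 CPM at 0 h. The 4 h libraries of both lay below all 0 h libraries, with changes of -0.41 ± 0.09 (SE, adjusted p = 0.00216 in edgeR) for PRPF4 and -0.39 ± 0.11 (SE, adjusted p = 0.00984 in edgeR) for PRPF3. PRPF31 had 57.7, 61.4 and 67.8 CPM at 0 h, 59.3, 71.9 and 70.3 after 1 h, 66.5, 67.4 and 67.3 after 2 h and 82.0, 83.1 and 89.5 after 4 h. Its 4 h libraries stood above all others, and its change was 0.45 ± 0.08 (SE, adjusted p = 0.000664 in edgeR), 1.36-fold higher, with 0.08 under the ribosomal scaling. The call of PRPF3 was lost without replicate 1 of 0 h, at an edgeR adjusted p of 0.0526.

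PRPF4B, a kinase of the tri-snRNP that phosphorylates other PRPF proteins, had 122, 137 and 125 CPM at 0 h, 135, 124 and 137 after 1 h, 104, 115 and 117 after 2 h and 84.0, 79.0 and 90.5 after 4 h. Levels of 0 h and 1 h overlapped, those of 2 h lay below both, and those of 4 h were lower again. The change was -0.19 ± 0.07 (SE, adjusted p = 0.114 in edgeR) at 2 h and -0.60 ± 0.08 (SE, adjusted p = 2.49e-05 in edgeR) at 4 h, 1.51-fold lower, and with the block it was called at 2 h with an adjusted p of 0.00487. PRPF39, which associates with the U1 snRNP, had 36.0, 37.7 and 35.9 CPM at 0 h, 47.7, 40.9 and 45.5 after 1 h, 45.3, 48.0 and 47.0 after 2 h and 46.9, 52.1 and 56.2 after 4 h. All later libraries stood above those of 0 h, and the change was 0.29 ± 0.08 (SE, adjusted p = 0.137 in edgeR) at 1 h, 0.36 ± 0.08 (SE, adjusted p = 0.0109 in edgeR) at 2 h and 0.50 ± 0.08 (SE, adjusted p = 0.000269 in edgeR) at 4 h. With the block PRPF39 was called at 1 h, with an adjusted p of 0.00571, and under the ribosomal scaling it stood at 0.14 at 4 h without a call. PRPF8, the U5 protein at the catalytic centre, had 669.9, 629 and 589 CPM at 4 h, against 554, 502 and 489 CPM at 0 h. Its libraries did not overlap, and the change was 0.29 ± 0.07 (SE, adjusted p = 0.00371 in edgeR), with -0.07 under the ribosomal scaling.

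**Figure D5:**
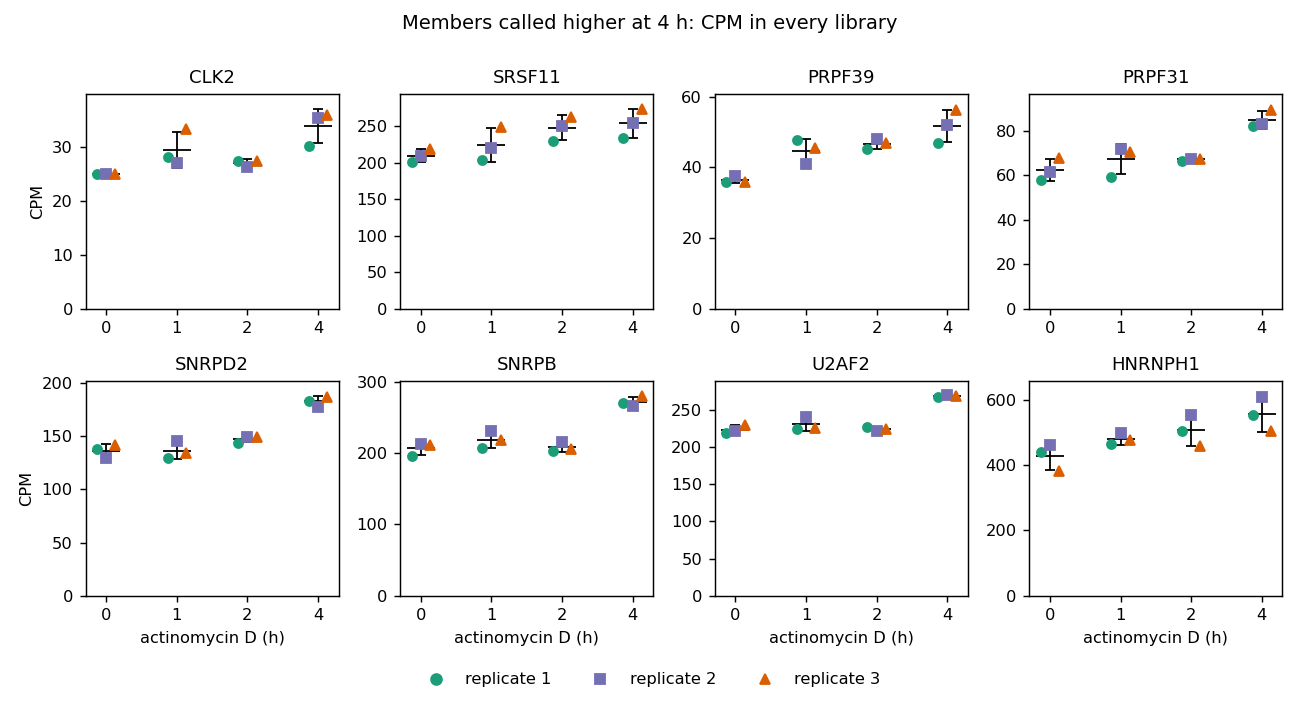
CPM (y axis, from 0) of 8 genes called higher at 4 h with TMM scaling over hours of actinomycin D (x axis), with 1 point per library, marked by replicate number, and bars for mean ± SD of 3 libraries. The 4 h libraries lie above those of 0 h in all 8; none of the 8 is called under the ribosomal scaling, where SRSF11 and U2AF2 turn below 0.

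Earlier times held few calls. At 1 h, 0 of the 75 genes were called lower and 0 higher by edgeR, where 1.14% and 0.18% of all genes were, and DESeq2 called 1 lower and 0 higher. An unadjusted p under 0.05 in edgeR was seen in 5 members, a count that stands without the share of all genes. With the block, 2 members were lower, CLK1 and SRSF3, and 2 were higher, PRPF39 and HNRNPH1. That is 2.67% in either direction, against 6.5% lower and 2.59% higher of all genes. HNRNPH1 had a change of 0.16 ± 0.09 (SE, adjusted p = 0.669 in edgeR) at 1 h and had an adjusted p of 0.00201 with the block. At 2 h, 3 members were lower, CLK1, CLK3 and HNRNPF, and 5 were higher, or 4.0% and 6.67%, against 11.7% and 3.41% of all genes. The higher ones were PRPF39, SF3B1, SNRPF, SF3A3 and HNRNPUL2, which is related to HNRNPU and had 81.9, 87.3 and 83.4 CPM at 2 h, against 69.3, 76.5 and 72.1 CPM at 0 h, with a change of 0.21 ± 0.06 (SE, adjusted p = 0.0396 in edgeR). The count of higher members at 2 h was 1 or 2 without any one of 8 libraries, among them each library of 0 h and each of 2 h. Under the ribosomal scaling 8 members were lower and 0 higher at 2 h, given here without the matching share of all genes. With the block the counts at 2 h were 9 lower and 20 higher, while 19.7% and 16.2% of all genes were called.

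The difference in rate, that is, the log2 change over the last 2 h less the one over the first 2 h, was called lower for 0 and higher for 0 of the 75 genes, where 0.243% and 0.376% of all genes were called. An unadjusted p under 0.05 was seen in 7 members, and DESeq2 called 0 in either direction, also with 7 at an unadjusted p under 0.05. These counts at an unadjusted p stand without the share of all genes and are not a result about the members. With the block, 9 members were lower and 5 higher, against 5.85% and 7.34% of all genes. CLK1 had the largest value, 0.78 ± 0.21 (SE, adjusted p = 0.13 in edgeR), with an adjusted p of 0.00113 with the block. Its level was lower at 2 h than at 0 h, and its libraries of 4 h and 2 h overlapped. SNRPB, SF3B5 and U2AF2, whose libraries of 2 h and 0 h overlapped and whose 4 h libraries stood above both, had values of 0.37, 0.40 and 0.26 and adjusted p-values with the block of 0.000395, 0.00754 and 0.0107. SRSF4 and SRSF5 had values on the other side of 0, of -0.31 and -0.30 and adjusted p-values with the block of 0.0309 and 0.0422.

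The calls at 4 h held to a different degree when single libraries were left out. Of the 11 lower members, 8 were called without any 1 of the 12 libraries in turn, and PRPF3, SRSF8 and U2AF1 were not. Of the 26 higher members, 16 were. The count of higher members was 16 without replicate 1 of 0 h and 17 without replicate 2 of 4 h. Without replicate 3 at all 4 times, a choice made after seeing the data, 13 members were lower and 24 higher. These counts and those of DESeq2 stand without the shares of all genes. They describe how calls moved and are not a result about the members.

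Other splicing genes that the symbol pattern does not take gave a wider spread. In a list of 66 further core genes tested, such as LSM, SNRNP and DHX genes, 18 were lower and 16 higher at 4 h, with a median of 0.01 on the log2 scale, which is 27.3% and 24.2% of the list, near the 24.5% and 23.2% of all genes. Under the ribosomal scaling 42 were lower and 1 higher, or 63.6% and 1.52% of the list, where 44.5% and 1.21% of all genes were called. BUD13, a subunit of the RES complex, averaged 6.11 ± 0.315 CPM at 4 h and 21.2 ± 1.27 CPM at 0 h (SD, n = 3 each), a change of -1.80 ± 0.14 (SE, edgeR adjusted p = 2.11e-07). CWC22, which links the spliceosome to the exon junction complex, and SNRNP35, a protein of the U11/U12 particle, changed by -1.19 and -1.15. LSM7 and LSM4, of the ring on U6, and SNRNP25, of the U11/U12 particle, were higher by 0.65, 0.40 and 0.53, and LSM7 alone of these 3 was also called under the ribosomal scaling, at 0.29.

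In a list of 56 further regulators, 18 were lower and 9 higher, or 32.1% and 16.1%, with a median of -0.03. Under the ribosomal scaling 39 were lower and 0 higher, or 69.6% and 0% of the list, where 44.5% and 1.21% of all genes were called. RBM15, which guides m6A marking, averaged 4.93 ± 0.579 CPM at 4 h and 23.1 ± 1.30 CPM at 0 h (SD, n = 3 each), a change of -2.22 ± 0.15 (SE, edgeR adjusted p = 6.45e-08). DYRK1A, a kinase that also acts on splicing factors, and SCAF8, an SR-like protein that binds RNA polymerase II, changed by -2.02 and -2.01. RBM6, RBM3 and RALY were higher by 0.54, 0.40 and 0.39, and none of the 3 was called under the ribosomal scaling. These 6 genes passed the same test as the 75 members, whose lowest value was -0.75.

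The count limit set few genes aside. The 12 symbols below it had at most 3 counts in any library and 7 of them had none. The members nearest above it were SRSF12 with 10 to 26 counts, HNRNPA1L2 with 14 to 41, U2AF1L4 with 36 to 86 and PRPF40B with 40 to 74. PRPF40B had a change of 0.23 ± 0.23 (SE, adjusted p = 0.432 in edgeR) at 4 h.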

How the data were processed

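Polyadenylated RNA of 12 shA673-1c cultures, in biological triplicate per the labels, was sequenced with a stranded TruSeq mRNA kit. The authors deposited raw counts per gene symbol. Per the submitters' processing notes, FastQC, STAR and hg19 were used, in versions that are not stated there. Neither the counting program nor its annotation or strand option is given in the sources used here.

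Tests used edgeR 4.0.16 (R 4.3.3): filterByExpr on the time groups with a minimum count of 10, TMM scaling, a robust quasi-likelihood fit of all 12 libraries with time as 4 groups, and Benjamini-Hochberg adjustment over 12775 genes with a threshold of 0.05. An SE is the size of a log2 change over the square root of its F statistic. The script was tested on simulated data. Alternatives were RLE size factors, library totals, 77 ribosomal protein genes, no filter, DESeq2 1.42.0, a replicate block, each library left out, and, chosen after seeing the data, replicate 3 left out at all 4 times.

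The replicate numbers of the labels paired the libraries: deviations from group means correlated at 0.263 to 0.649 between libraries of 1 number and at -0.501 to 0.16 between different numbers. No libraries were identical, and the chi-square of replicates per degree of freedom was 4.35 to 16.1.

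Named genes were up to 3 largest falls and rises per class at 4 h among called genes with a mean of at least 5 CPM, 19 genes always named, up to 4 per direction at other contrasts, members near the count limit, and antisense or copy genes. SRSF8, SNRPC, SNRPD1, SNRPD3, SNRPE, SNRPG, SNRPA, SF3A3, HNRNPD and HNRNPH2 were added after their values were seen. Not every called member is described: HNRNPA2B1 and HNRNPAB, called higher at 4 h by 0.22 and 0.21, are not. Members and lists were chosen with earlier results of these data known. 3′ UTRs are those of 1 transcript per gene (basic set, best APPRIS level, longest) in GENCODE release 29 on GRCh38, matched by symbol, and not of the build the reads were mapped to. Totals of 9381855 to 10929000 counts limit the precision of members with few counts. SDs are over 3 libraries of a time, and SEs come from the fit of all 12 libraries.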

Additional observations from a re-analysis of the deposited data

How the results depend on the processing

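The alternative scalings move all genes down at 4 h, so lower calls gain and higher calls drop out by construction: the median of all genes was 0.0346 with RLE, -0.0957 with library totals and -0.308 with ribosomal scaling, against 0.0545 with TMM. No external RNA standard was used, so no scaling here measures molecules per cell. Genes with few counts, such as SRSF12 and HNRNPA1L2, have wide errors, and near-identical copies may share reads. The 3′ UTRs are of 1 reference transcript and were not measured in these cells.

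Without replicate 3 at all 4 times, 1 member was lower at 1 h and 1 higher at 2 h, SRSF2 was -0.0132 and SRSF12 -0.137 at 4 h.

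The replicate block, whose pairing is given with the processing, called 2 lower and 2 higher members at 1 h, 9 and 20 at 2 h, 20 and 36 at 4 h, and 9 and 5 for the change of rate; of the 45 named values, 8 that missed the threshold without it passed it with it, and none lost it. At 1 h, 1 member was lower under library totals, with no filter and with DESeq2, and 0 to 1 without single libraries. At 2 h the ribosomal scaling called 8 lower and 0 higher, and library totals and no filter 1 higher each; without single libraries 1 to 4 were higher. At 4 h library totals called 21 lower and 7 higher, the ribosomal scaling 40 and 0, and 16 to 25 were higher without single libraries. The change of rate was called higher for 0 to 1 member without single libraries. The regulators' median at 4 h was -0.277 under library totals, -0.492 under the ribosomal scaling and -0.187 to -0.0727 without single libraries, and the core's was 0.00846 and -0.205 under those scalings.

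Of the 45 named values, 14 changed sign under the ribosomal scaling: SRSF11 to -0.0857, SRSF9 to -0.195, HNRNPM to -0.106, HNRNPK to -0.124, SF3A1 to -0.0528, SF3B5 to -0.0573, U2AF2 to -0.0980, PRPF8 to -0.0750, TRA2A to -0.0713, SRSF2 to -0.353, SF3B1 to -0.211, HNRNPA1 to -0.186, HNRNPC to -0.182 and SRSF12 to -0.236. SRSF2, near 0, was also -0.00837 with RLE, -0.139 with library totals, -0.00851 with DESeq2, and SRSF12 was -0.0220 with library totals. Leaving out single libraries gave ranges that crossed 0 for SRSF2 (-0.141 to 0.143), SRSF12 (-0.116 to 0.297) and HNRNPU (-0.0872 to 0.0539).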
